A study of Mus musculus with 18 samples.

Results

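Members of the COUP-TF and TALE transcription factor families were followed across mouse dermal cell groups: the COUP-TF genes Nr2f1, Nr2f2 and Nr2f6, and the TALE genes Meis1, Meis2, Meis3, Pbx2 and Pbx3. They are 8 of the 18193 genes that the arrays measured with at least 1 single-gene probe set. The genes were listed by name. Each is represented by 1 of the 22 single-gene probe sets that the members have together, chosen by its mean log2 level on all 18 arrays, the brightest set being taken. That choice uses no group labels, but a probe set that is high in some groups gains in mean from them. The gene names were also picked with results of these arrays already known. Calls of the members therefore describe these arrays and give no independent support for any pattern. Expression was measured on 18 Affymetrix Mouse Genome 430 2.0 arrays, 3 in each of 6 groups, and values are on the log2 scale of RMA, a method that combines the probes of a set into 1 value.

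All mice carried R26mTmG, a reporter in which cells are red until Cre turns them and their descendants green, and none was treated. ENF cells (RFP positive, GFP negative) and EPF cells (GFP positive, RFP negative) were both sorted from the dorsal dermis of En1Cre; R26mTmG animals, labelled P56, although the protocol puts back skin harvest at 30 days. Dorsal and Ventral cells were the GFP-positive cells of dorsal and ventral dermis of En1Cre; R26mTmG mice at P30. Cranial and Oral cells were the GFP-positive cells of cranial dermis and oral mucosa of Wnt1Cre; R26mTmG mice at P30. Every sort left out cells positive for EpCAM, DAPI, Tie2, CD31, CD45 or what the labels call Tie119. A green cell therefore descends from one that once expressed En1 or Wnt1, and body site and Cre line cannot be told apart when the Cranial and Oral groups (called the head groups below) are set against Dorsal and Ventral (the trunk groups). The labels do not say whether replicates came from separate animals, so p-values measure only the spread between these samples, which may be technical.

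COUP-TFs are orphan nuclear receptors that bind DNA as dimers at hexamer repeats and mostly repress transcription, often at sites that retinoic acid receptors also use. Nr2f1 and Nr2f2 are expressed in neural crest derivatives and head mesenchyme of the embryo, and Nr2f2 is also known for specifying veins and lymphatic vessels. Meis and Pbx proteins are homeodomain factors with an inserted loop of amino acids, the feature that gives the TALE class its name, and they bind DNA as partners of one another and of Hox proteins, in head regions without Hox expression as well as in the trunk.

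The groups held fibroblasts by their defining markers. The mean of 8 fibroblast markers lay between 11.03 and 13.54 on every array. Single markers were not even over the sites. Dcn averaged 10.80 in Oral, 12.71 in Cranial, 12.86 in Ventral and 13.20 in Dorsal. Lum averaged 11.24 in Cranial and 8.27 in Ventral, where its SD was 2.27. The part of such differences in the member values was not tested. Of 10 endothelial markers, Pecam1, Tie1, Emcn, Lyve1 and Prox1, which define blood and lymphatic endothelium, were near background in all 6 groups. Others of that list were not, namely Tek (which encodes Tie2, one of the sort markers) at 10.46 in ENF and 10.20 in EPF, Kdr at 6.55 to 8.87 over the 6 groups, and Flt1 at 8.21 in Ventral and 7.56 in Dorsal. Here, near background means a group mean at or below the highest lower quartile of the arrays, which ran from 3.93 to 4.10, and a difference from such a group is a lower bound. Correlations across genes ran from 0.962 to 0.988 among ENF and EPF arrays, from 0.946 to 0.998 among the other 12, and from 0.872 to 0.926 between these sets, which also differ in labelled age. On ENF 1 and EPF 2, Xist, the RNA that coats the inactive X chromosome, was at 4.98 and 5.20, while the other 16 arrays lay between 10.48 and 12.13. The EPF and ENF comparison was therefore also made without those arrays.

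The promoter sequences of Nr2f1, Nr2f2 and Meis1 are given first because these are the members whose site differences the results turn on. Each is the 250 bases before the gene's start in RefSeq (GRCm38.p6), 5′ to 3′ on the minus strand, which is the coding strand of all these genes, in lower case with CG dinucleotides in capitals.
Nr2f1, chr13:78198874-78199123: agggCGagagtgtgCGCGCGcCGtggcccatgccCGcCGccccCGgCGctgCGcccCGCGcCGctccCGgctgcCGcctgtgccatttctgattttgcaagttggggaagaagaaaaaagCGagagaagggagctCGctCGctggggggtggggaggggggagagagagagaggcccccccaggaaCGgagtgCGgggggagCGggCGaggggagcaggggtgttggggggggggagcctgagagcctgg
Nr2f2, chr7:70366747-70366996: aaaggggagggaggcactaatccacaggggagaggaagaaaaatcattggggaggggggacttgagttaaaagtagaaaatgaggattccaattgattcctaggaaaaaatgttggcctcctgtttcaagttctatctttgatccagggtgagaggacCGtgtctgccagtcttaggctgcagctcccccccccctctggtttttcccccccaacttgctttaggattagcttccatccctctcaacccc
Meis1, chr11:19018970-19019219: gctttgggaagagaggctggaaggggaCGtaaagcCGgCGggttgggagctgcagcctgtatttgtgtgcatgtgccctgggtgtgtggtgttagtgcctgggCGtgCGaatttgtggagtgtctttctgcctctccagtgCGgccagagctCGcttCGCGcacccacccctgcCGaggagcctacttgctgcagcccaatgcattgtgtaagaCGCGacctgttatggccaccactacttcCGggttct
The Nr2f1 window held 22 CG dinucleotides at 72.0% GC, the Meis1 window 13 at 59.6% and the Nr2f2 window 1 at 50.0%. Over all 32851 windows of the same length the median was 6 CG dinucleotides at 52.4% GC, so Nr2f1 and Meis1 lie above it and Nr2f2 below. RefSeq lists a further Nr2f1 start, whose window at chr13:78196450-78196699 held 2 CG dinucleotides at 39.6% GC. Windows were found for 7 of the 8 members. Both strands were searched for AGGTCA, the nuclear receptor hexamer (in 14.0% of all windows), TGACAG, the Meis core (15.9%), and TGATNNAT, a Pbx and Hox composite (7.7%). None of the 3 motifs occurred in any member window, which says only that those letters are not in these 250 bases.

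Nr2f1 separated head from trunk groups by more than any other member. Its probe set read 8.56, 8.73 and 8.55 in Oral, 7.85, 7.66 and 7.86 in Cranial, 3.43, 4.80 and 3.63 in Dorsal, and 3.57, 3.30 and 3.36 in Ventral. Every head array lay above every trunk array, and the trunk means, 3.95 and 3.41, were near background, so the differences are lower bounds. In limma, with Benjamini-Hochberg adjustment over all 18193 genes, Oral exceeded Ventral by 5.21 ± 0.28 log2 (SE, adjusted p = 1.28e-06), a fold of 36.91. Oral exceeded Dorsal by 4.66 ± 0.28 (adjusted p = 2.82e-06), Cranial exceeded Ventral by 4.38 ± 0.28 (7.17e-06), and Cranial exceeded Dorsal by 3.84 ± 0.28 (2.31e-05). These 4 calls held in all 22 settings tried. Dorsal 2 stood above the other trunk arrays.

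The order of the Nr2f1 site means was Oral, Cranial and then the trunk groups, which are not ordered because both are near background. The Oral arrays lay above the Cranial arrays without overlap, by 0.83 ± 0.28 (adjusted p = 0.333), and this difference was called without Dorsal 2 (adjusted p = 0.00588; range over the settings 7.67e-05 to 0.746). Dorsal and Ventral overlapped, at a difference of -0.54 ± 0.28 for Ventral minus Dorsal (adjusted p = 0.623), which array weights moved to -1.36 and called (0.000583). The span between its highest and lowest site mean was at least 5.21, as a description, against a median span of 0.41 over all genes. Nr2f1 was measured by a single probe set, so no second set of probes bears on it.

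Nr2f2 was higher in the head groups too, by less. It read 8.89, 9.23 and 9.08 in Oral, 8.89, 8.79 and 8.63 in Cranial, 8.39, 8.39 and 8.27 in Ventral, and 7.20, 7.96 and 7.81 in Dorsal. The order was Oral, Cranial, Ventral, Dorsal, every head array lay above every trunk array, and Ventral lay above Dorsal without overlap. Cranial exceeded Dorsal by 1.11 ± 0.18 (adjusted p = 0.00216) and Oral exceeded Dorsal by 1.41 ± 0.18 (0.000497), and both calls held in all 22 settings. Oral exceeded Ventral by 0.72 ± 0.18 (0.0215). That call was lost without Oral 2, Oral 3, Ventral 2 or Ventral 3 (adjusted p 0.059 to 0.0919) and after quantile normalization of the columns (0.145) or centring of each array on its median (0.0538). Cranial minus Ventral was 0.42 ± 0.18 (0.126), called without Dorsal 1 (0.015; range 0.00211 to 0.56).

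The other 5 probe sets of Nr2f2 had the same sign in both Dorsal comparisons. Of these, 2 were called higher in Cranial than in Dorsal and 3 in Oral than in Dorsal, and none was called the other way in any comparison. On probe set 1416158_at the separation was wider than on the one used, with Oral at 6.92 ± 0.46 (SD, n = 3), Cranial at 6.61 ± 0.17, Ventral at 4.39 ± 0.16 and Dorsal at 4.11 ± 0.25. There, Cranial exceeded Ventral by 2.22 ± 0.21 (limma over 34945 probe sets, adjusted p = 0.000124), a difference that the probe set used did not call. In that comparison 1436475_at was also called, at 0.96 ± 0.15 (0.00212). The sets 1416160_at, 1444229_at and 1431237_at gave Cranial below Ventral, at -0.24, -0.23 and -0.23, and were not called. The endothelial marker mean was 4.45 to 4.49 in Cranial, 4.34 to 4.49 in Oral, 4.60 to 4.70 in Dorsal and 4.68 to 4.82 in Ventral. Of that list, Flt1 and Kdr were called lower in each head group than in each trunk group. Flt1 averaged 6.19 in Cranial, 5.38 in Oral, 7.56 in Dorsal and 8.21 in Ventral, and Kdr 6.55, 6.63, 7.28 and 7.10. Tek was called the other way between Cranial and Ventral, at 0.52. The part of these markers in the Nr2f2 values was not tested. In these bulk samples, fewer cells of a type and less RNA per cell cannot be told apart.

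Nr2f6, a more distant COUP-TF relative that also acts mainly as a repressor, ran the other way on the probe set used. It read 9.72, 9.41 and 9.41 in Dorsal, 8.86, 8.91 and 9.07 in Ventral, 8.94, 8.68 and 8.40 in Oral, and 8.41, 8.39 and 8.51 in Cranial. Dorsal lay above all other site arrays, while Ventral and Oral overlapped. Cranial was lower than Dorsal by -1.08 ± 0.15 (adjusted p = 0.000825), Oral than Dorsal by -0.84 ± 0.15 (0.00292), and Cranial than Ventral by -0.51 ± 0.15 (0.0344). The last call was lost without any 1 of the 3 Cranial arrays, the 3 Ventral arrays or Oral 2 (adjusted p 0.0528 to 0.11), with the replicate number as a block (0.0519) and with trended robust eBayes (0.0639). Oral minus Ventral was -0.28 ± 0.15 (0.237), called at -0.48 after quantile normalization (0.0197), at -0.45 after centring (0.0406) and at -0.28 with array weights (0.0459; range over the settings 0.0197 to 0.581).

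The second Nr2f6 probe set, 1460648_at, gave the opposite order. Its means were 8.27 ± 0.16 in Oral, 8.06 ± 0.03 in Cranial and 7.40 ± 0.21 in both Dorsal and Ventral. On this set Cranial exceeded Dorsal by 0.66 ± 0.14 (adjusted p = 0.009), Oral exceeded Dorsal by 0.87 ± 0.14 (0.00189), Oral exceeded Ventral by 0.87 ± 0.14 (0.00217) and Cranial exceeded Ventral by 0.66 ± 0.14 (0.00913). No direction between head and trunk is therefore given for Nr2f6 as a gene. What sets the probe sets apart was not tested.

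Meis1 was the member called between the head groups. It read 9.39, 9.34 and 9.56 in Cranial, 8.22, 8.33 and 8.46 in Ventral, 8.03, 8.40 and 7.39 in Dorsal, and 7.29, 7.30 and 7.08 in Oral. The Cranial arrays lay above and the Oral arrays below all others of the site set, while Ventral and Dorsal overlapped. Oral was lower than Cranial by -2.21 ± 0.21 (adjusted p = 0.000246), a fold of 4.63, and this call held in all 22 settings. Oral was lower than Ventral by -1.12 ± 0.21 (0.00506), also in all 22 settings, and lower than Dorsal by -0.72 ± 0.21 (0.0379). The last call was lost without Dorsal 2, any 1 of the Cranial or Oral arrays, Ventral 2 or Ventral 3 (adjusted p 0.0533 to 0.124), and with the replicate number as a block (0.0545).

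Cranial exceeded Dorsal in Meis1 by 1.49 ± 0.21 (adjusted p = 0.001) and Ventral by 1.10 ± 0.21 (0.00543) on the probe set used. On the second set, 1443260_at, the Cranial mean was 7.06 ± 0.07, below Dorsal at 7.70 ± 0.11 and Ventral at 7.63 ± 0.33, and both differences were called in the other direction, at -0.64 ± 0.16 (0.019) and -0.57 ± 0.16 (0.0329). Oral was the lowest on both sets, at 5.38 ± 0.18 on the second. There it was lower than Cranial by -1.68 ± 0.16 (0.000396), than Dorsal by -2.33 ± 0.16 (8.26e-06) and than Ventral by -2.25 ± 0.16 (1.12e-05). Low Meis1 in Oral was thus seen on both probe sets, while the place of Cranial against the trunk depended on the probe set. One more Meis1 set, 1459423_at, had site means between 4.35 and 4.81 and no calls.

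Meis2, a close relative of Meis1 and a marker of cranial neural crest derivatives in the embryo, was called in no comparison in the main setting on the probe set used. It read 10.12, 10.06 and 10.22 in Cranial, 9.88, 9.87 and 9.45 in Dorsal, 9.14, 9.71 and 9.91 in Ventral, and 9.14, 9.47 and 9.32 in Oral. Cranial lay above the arrays of the other site groups without overlap, and the other 3 overlapped. Oral minus Cranial was -0.82 ± 0.19 (adjusted p = 0.088), and it was called without Dorsal 1 (0.0496), Dorsal 3 (0.0467) or Ventral 1 (0.019; range over the settings 0.000128 to 0.372). Cranial minus Ventral was 0.55 ± 0.19 (0.0757), and called without Dorsal 1 (0.045), Dorsal 3 (0.05) or Ventral 3 (0.0459; range 0.00418 to 0.219).

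A second Meis2 probe set, 1417129_a_at, separated the groups more widely, with Cranial at 9.77 ± 0.14, Oral at 8.85 ± 0.09, Ventral at 8.14 ± 0.36 and Dorsal at 7.97 ± 0.19. On it, Cranial exceeded Dorsal by 1.80 ± 0.17 (adjusted p = 0.000111) and Ventral by 1.63 ± 0.17 (0.000216), and Oral was lower than Cranial by -0.92 ± 0.17 (0.0367). Oral exceeded Dorsal by 0.88 ± 0.17 (0.00602) and Ventral by 0.70 ± 0.17 (0.0206), whereas the set used gave Oral below both, at -0.42 ± 0.19 (0.17) and -0.28 ± 0.19 (0.383). On the set used, Oral was called lower than Dorsal after centring, at -0.63 (0.0278), and with array weights, at -0.47 (0.00669), and lower than Ventral with array weights, at -0.36 (0.0363). Cranial had the highest mean on both sets, and the place of Oral against the trunk differed between them. The remaining Meis2 sets, 1447861_x_at and 1440091_at, were called in no comparison. Cranial had the highest site mean on these too, at 7.47 and 7.04, but on 1440091_at it exceeded Ventral by only 0.07 ± 0.32.

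Meis3, a further Meis gene, is known from hindbrain patterning. It was measured by 1 probe set, which read 6.50, 6.31 and 6.29 in Cranial, 6.22, 6.27 and 6.06 in Oral, 5.23, 5.93 and 5.60 in Dorsal, and 5.36, 5.65 and 5.80 in Ventral. Every head array lay above every trunk array, by narrow gaps. Cranial exceeded Dorsal by 0.78 ± 0.17 (adjusted p = 0.0124) and Ventral by 0.76 ± 0.17 (0.0133), and Oral exceeded Dorsal by 0.60 ± 0.17 (0.0397) and Ventral by 0.58 ± 0.17 (0.0482). Both Cranial calls were lost without Cranial 1 (0.0567 and 0.0597). The Oral call over Dorsal was lost without any 1 of the Cranial or Oral arrays, Dorsal 1, Dorsal 3 or Ventral 2 (0.0564 to 0.131), and the one over Ventral without any 1 of the Cranial, Oral or Ventral arrays (0.0554 to 0.156). Centring the arrays also ended both Oral calls, at 0.39 (0.0937) and 0.41 (0.0926), and so did the replicate number as a block (0.052 and 0.0626).

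Pbx2, a broadly expressed Pbx protein, was higher in both head groups on the probe set used. It read 7.42, 7.39 and 7.33 in Cranial, 7.39, 7.52 and 7.41 in Oral, 6.66, 6.92 and 6.07 in Dorsal, and 6.69, 6.39 and 6.86 in Ventral. The head arrays lay within a narrow band above every trunk array, and Dorsal and Ventral overlapped. Oral exceeded Dorsal by 0.89 ± 0.19 (adjusted p = 0.00986) and Ventral by 0.79 ± 0.19 (0.0191), and Cranial exceeded Dorsal by 0.83 ± 0.19 (0.0145) and Ventral by 0.73 ± 0.19 (0.0249). The Cranial call over Dorsal was lost without Cranial 1 (0.0552), that over Ventral without any 1 of the Cranial arrays, Ventral 1 or Ventral 2 (0.0547 to 0.0914) and after quantile normalization (0.0766), and the Oral call over Ventral without any 1 of the Oral arrays or Ventral 2 (0.052 to 0.0798). The other Pbx2 probe sets, 1418894_s_at and 1449261_at, were called in no comparison, and for Cranial minus Dorsal they read -0.16 and -0.15.

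Pbx3, a Pbx protein with roles in limb and hindbrain development, was called in no comparison on the probe set used. It read 10.45, 10.30 and 9.91 in Oral, 10.41, 9.88 and 9.94 in Ventral, 10.09, 10.03 and 9.99 in Cranial, and 8.76, 10.33 and 10.09 in Dorsal. All 4 groups overlapped apart from Dorsal 1, which lay below the rest. The largest difference, Oral minus Dorsal, was 0.49 ± 0.34 (adjusted p = 0.368). The second probe set, 1421193_a_at, read 7.82 ± 0.08 in Cranial, 7.72 ± 0.01 in Oral, 6.29 ± 0.21 in Ventral and 6.27 ± 0.15 in Dorsal. All 4 head against trunk differences were called on it, from 1.43 ± 0.12 for Oral minus Ventral (4.00e-05) to 1.55 ± 0.12 for Cranial minus Dorsal (3.50e-05).

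**Figure D1:**
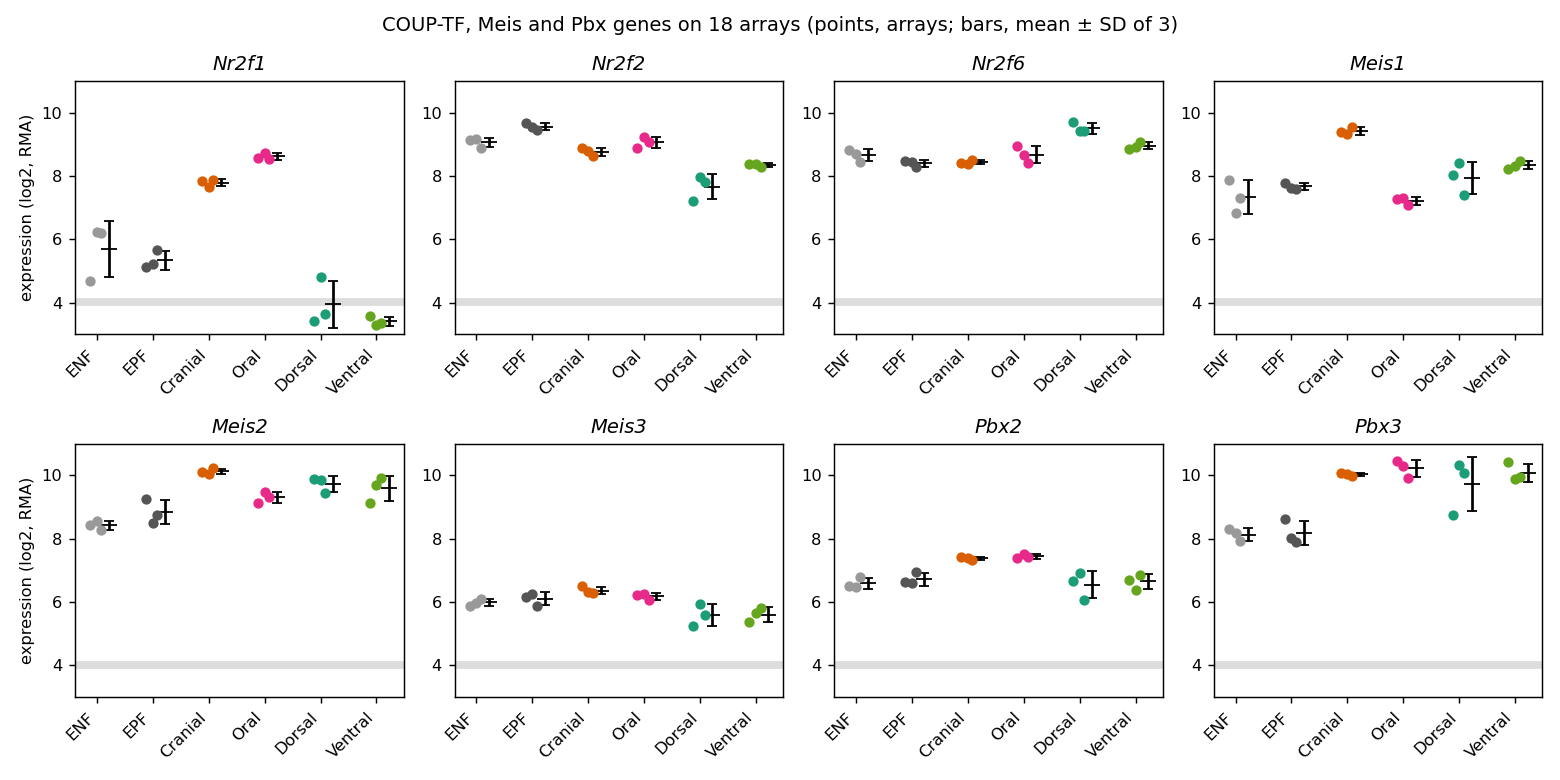
Expression (log2, RMA) of the 8 genes on each of the 18 arrays, by group. Points are arrays, bars are the mean ± SD of 3, and the grey band marks the lower quartiles of the arrays (3.93 to 4.10). Nr2f1 lies between 7.66 and 8.73 on the head arrays and between 3.30 and 4.80 on the trunk arrays, and Meis1 is highest in Cranial and lowest, within the site groups, in Oral.

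**Figure D2:**
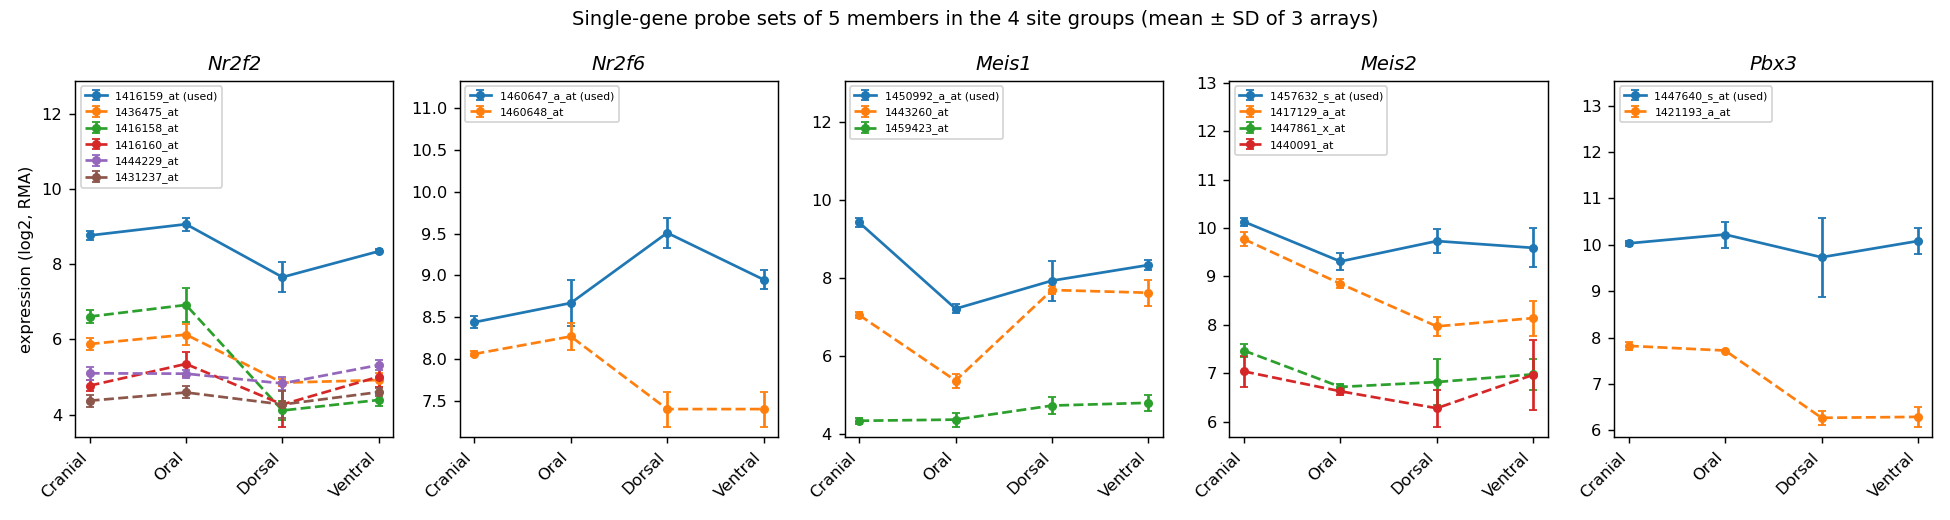
Mean ± SD (3 arrays, log2) of every single-gene probe set of 5 members in the 4 site groups. Solid lines mark the probe set used and dashed lines the others, and lines only join the points of 1 set. Each panel has its own axis, shared by the sets of that gene. Heights are to be read within a set and not between sets. For Nr2f6 the sets run in opposite directions, and for Meis1 both brighter sets are lowest in Oral.

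Counted over the members, 6 of 8 were called between Cranial and Dorsal (5 higher and 1 lower), against 18.7% of all genes tested (11.2% higher and 7.45% lower). Between Oral and Dorsal 6 were called (4 higher and 2 lower), against 16.8% (10.5% and 6.3%). Between Oral and Ventral 5 were called (4 higher and 1 lower), against 14.6% (10.3% and 4.31%), and between Cranial and Ventral 5 (4 higher and 1 lower), against 17.9% (11.7% and 6.2%). Arrays did not overlap in 7, 6, 5 and 7 members in that order, against 35.5%, 30.1%, 44.4% and 54.9% of all genes. Nr2f1, Meis3 and Pbx2 were called higher in all 4 comparisons, as were 5.54% of all genes, and no member was called lower in all 4, as 1.8% of all genes were. The median member difference was 0.80, 0.54, 0.36 and 0.64, against -0.06, -0.02, -0.02 and -0.06 over all genes. All these counts are for the probe set used, and which members were called depended on that choice. With the median of a gene's probe sets, Nr2f1, Nr2f2, Meis2, Meis3 and Pbx3 were called between Cranial and Dorsal, all higher. In that setting 3072 of the 18193 genes were called, 1734 higher and 1338 lower.

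The count of members called over Ventral depended on single arrays. For Oral minus Ventral it was 2 without Oral 2, Oral 3 or Ventral 2 and 3 without Oral 1 or Ventral 3. For Cranial minus Ventral it was 2 without Cranial 1, 3 without Cranial 2, Cranial 3, Ventral 1 or Ventral 2, and 7 without Dorsal 1. The count of all genes called moved in the same way. For Oral minus Ventral that count was 2665 with all arrays and 1420 to 1833 without any 1 of the arrays named. For Cranial minus Ventral it was 3251 with all arrays, 1695 without Cranial 1 and 6128 without Dorsal 1. Without Cranial 2, Cranial 3, Ventral 1 or Ventral 2 it was 1641 to 2350. The array medians over the probe sets used ran from 6.39 to 6.44 on the head arrays and from 6.17 to 6.27 on the trunk arrays. Over all probe sets other than controls the order was the other way, with medians of 5.19 to 5.22 on the head arrays and 5.22 to 5.32 on the trunk arrays. Centring used the former medians, so it does not correct a brightness of whole arrays. Centring each array on its median moved the median difference of all genes to -0.27, -0.23, -0.20 and -0.24, and turned the split of called genes from 2037 higher and 1356 lower to 1421 and 5317 (Cranial minus Dorsal), from 1918 and 1147 to 1338 and 4045 (Oral minus Dorsal), from 1881 and 784 to 1367 and 2822 (Oral minus Ventral), and from 2123 and 1128 to 1690 and 4534 (Cranial minus Ventral). No called member difference changed sign under that centring or under quantile normalization.

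**Figure D3:**
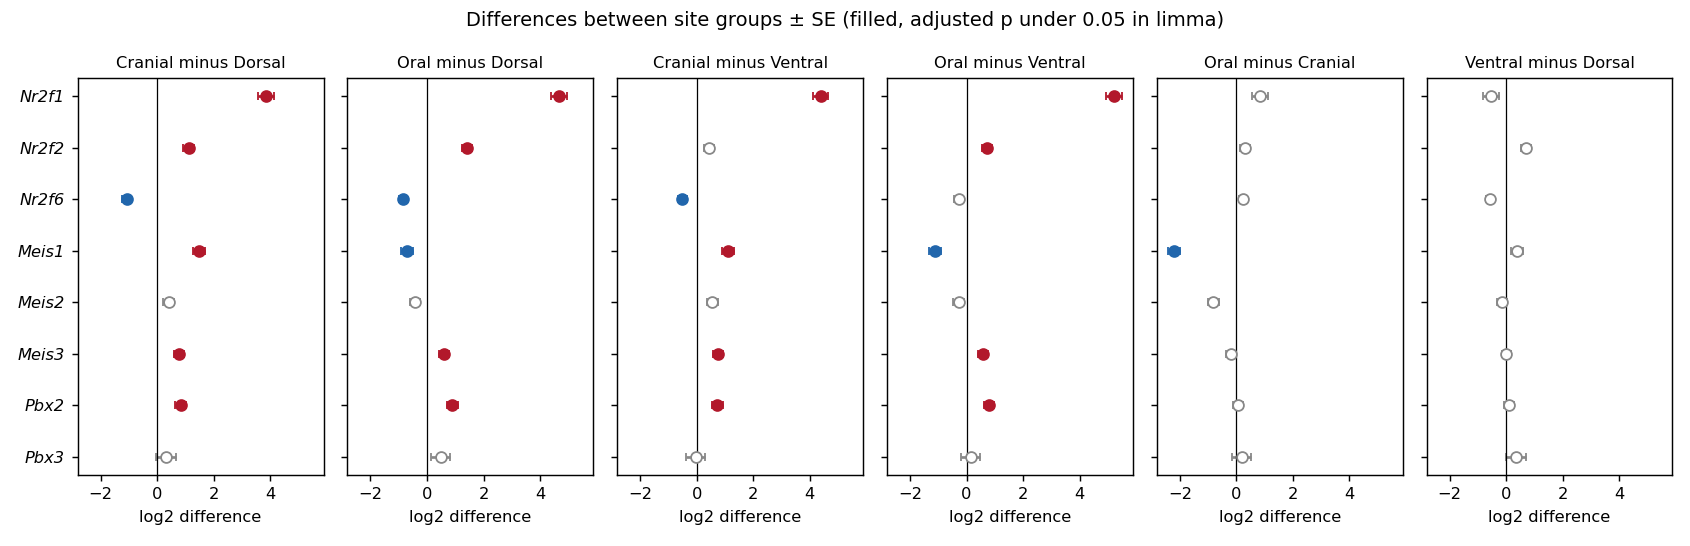
Differences between site groups (log2, ± SE from limma) for the 8 genes on the probe set used. Filled points have an adjusted p under 0.05, red higher and blue lower in the first group. Nr2f1 runs from 3.84 to 5.21 in the 4 head against trunk panels, and Meis1 at -2.21 is the only filled point in the Oral minus Cranial panel.

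Between Oral and Cranial, 1 of 8 members was called, Meis1 in the lower direction, against 1.14% of all genes (0.731% lower). Arrays did not overlap in 5 members (Nr2f1, Nr2f2, Meis1, Meis2 and Meis3), against 25.9% of genes. For Nr2f2 this rests on less than the digits shown, as the lowest Oral and the highest Cranial array both read 8.89. Between Ventral and Dorsal, limma called 0 of 8, against 0.0275% of genes (0.0055% higher and 0.022% lower), 5 genes in all. There, 2 members had an unadjusted p under 0.05, against 8.55% of genes, and those whose arrays did not overlap were Nr2f2, at 0.69 ± 0.18 (adjusted p = 0.417), and Nr2f6, at -0.57 ± 0.15 (0.411; -0.45 and called with array weights, 0.0288), against 10.1% of genes.

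In the back skin groups, the En1-lineage cells and the cells outside that lineage did not differ by a call in any member. Limma called 0 of 8, against 0.308% of genes (0.275% higher and 0.033% lower), and 1 member had an unadjusted p under 0.05, against 10.8% of genes. That member was Nr2f2, which read 9.68, 9.56 and 9.45 in EPF and 9.14, 9.16 and 8.89 in ENF. The EPF arrays lay above the ENF arrays without overlap, as for 17% of genes, at a difference of 0.50 ± 0.16 (adjusted p = 0.303), and of 0.54 without ENF 1 and EPF 2 (0.62).

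Nr2f1 read 5.12, 5.23 and 5.68 in EPF and 4.69, 6.22 and 6.20 in ENF, and the low array was ENF 1. The difference was -0.36 ± 0.41 (adjusted p = 0.808), and -0.81 without ENF 1 and EPF 2 (0.512; range over 16 settings 0.196 to 0.956). The other members differed by 0.41 ± 0.22 (Meis2, adjusted p = 0.552), 0.33 ± 0.26 (Meis1, 0.707), -0.26 ± 0.16 (Nr2f6, 0.632), 0.13 ± 0.17 (Pbx2, 0.836), 0.12 ± 0.16 (Meis3, 0.849) and 0.06 ± 0.22 (Pbx3, 0.959). Mean levels of some markers of other cells differed between these groups. The mean of 8 mural and smooth muscle markers was 8.99 to 9.17 in EPF and 6.72 to 6.98 in ENF, that of 8 skeletal muscle markers 4.34 to 4.62 and 5.63 to 6.59, and that of 9 keratinocyte markers 4.88 to 8.33 and 7.85 to 10.09. The keratinocyte ranges overlapped. Called were 5 of the mural markers, higher in EPF, and 2 of the skeletal muscle and 1 of the keratinocyte markers, lower in EPF. Of all genes 0.275% were called higher and 0.033% lower. The part of these markers in the member values was not tested.

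EPF and Dorsal carry the same label of lineage, site and genotype and differ in labelled age, which cannot be told apart from the set of arrays, so their values are placed side by side without a test. Nr2f1 averaged 5.34 in EPF and 3.95 in Dorsal, and Nr2f2 9.56 and 7.66. Nr2f6 averaged 8.40 and 9.51, Meis2 8.84 and 9.73, and Pbx3 8.19 and 9.73. These 5 did not overlap, while Meis1 (7.67 and 7.94), Meis3 (6.11 and 5.59) and Pbx2 (6.72 and 6.55) did. The share of all genes without overlap was not counted between these groups, so this count is not a result about the members. For Nr2f1, Nr2f2, Nr2f6 and Pbx3 the gap between the sets was above 1 log2 within dorsal skin, so levels in ENF and EPF are not ranked against the site groups.

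The mean levels of markers of other cells in the 4 site groups differed most for adipocytes. The mean of 5 adipocyte markers was 5.03 to 5.15 on the head arrays and 5.55 to 7.07 on the trunk arrays, with Fabp4 the highest, at 10.98 in Dorsal, and with Lep and Cidec near background in all 4 groups. Adipoq was near background in the head groups and not in the trunk groups. The keratinocyte mean was 4.53 to 5.19, the leukocyte mean 4.99 to 5.51 and the skeletal muscle mean 4.38 to 4.78 over the 12 site arrays, and the mural mean was 8.07 to 9.07. The melanocyte mean was 4.91 to 5.59 and the Schwann cell mean 5.57 to 6.17. In each head against trunk comparison 1 or 2 of 5 adipocyte and 1 or 2 of 6 melanocyte markers were called, all lower. Of the keratinocyte list, Perp was called higher in each, by 2.41 for Cranial minus Dorsal and 2.19 for Cranial minus Ventral. The part of the adipocyte difference in the member values was not tested.

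Genes whose pattern over the 12 site arrays was most like that of a member were taken for the 4 members with a span of at least 1 log2 between site means, which 13.2% of all genes also had. Arrays of a group share their site and sort, so the coefficients (Pearson r, n = 12 arrays) are descriptions. For Nr2f1 they were Zeb1 (r = 0.998), a zinc finger repressor, Cln6 (0.989), a membrane protein of the endoplasmic reticulum, and Braf (0.986), a kinase of the MAP kinase cascade. For Nr2f2 they were Hspb6 (0.975), a small heat shock protein, Pias1 (0.970), a SUMO ligase, and Cnot3 (0.967), a subunit of the CCR4-NOT deadenylase. For Nr2f6 they were C2cd2 (0.967), Hax1 (0.960) and Xpo7 (0.957), and for Meis1 Timp3 (0.919), an inhibitor of matrix metalloproteinases, Prickle1 (0.869), of planar cell polarity, and Plxnc1 (0.861), a semaphorin receptor. Zeb1 averaged 10.25 in Oral, 10.02 in Cranial, 8.82 in Dorsal and 8.61 in Ventral.

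Of 13 other TALE genes listed, 12 were measured. In the head groups, Tgif1, a corepressor in TGF-beta signalling, and Mkx, a tendon and ligament factor, were called higher than in each trunk group, and were the 2 genes of the list called higher in each Cranial comparison. Tgif1 averaged 8.12 in Oral, 7.92 in Cranial, 6.99 in Dorsal and 6.97 in Ventral. Mkx averaged 6.04, 5.80, 4.50 and 3.92 in the same order, so Ventral was near background, and it was also higher in EPF than in ENF, by 2.29 ± 0.19 (adjusted p = 0.00572). Pknox2, a Meis relative, was higher in Oral than in Dorsal by 1.31 ± 0.22 (0.00233) and than in Ventral by 1.11 ± 0.22 (0.00651).

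Irx2, an Iroquois factor, was lower in Oral than in each other site group, by -1.71 ± 0.11 against Cranial (1.28e-05), -1.69 ± 0.11 against Dorsal (3.73e-06) and -1.68 ± 0.11 against Ventral (3.57e-06). Irx1 was lower in Oral than in Ventral by -0.99 ± 0.28 (0.0353). These were all the TALE calls outside the Meis and Pbx members, and between Ventral and Dorsal there were none among the 12. Meis1 and Irx2 thus both had their lowest site mean in Oral.

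Among 8 of 9 other NR2 nuclear receptors that were measured, no gene was called higher in any comparison. Nr2c1, an orphan receptor that represses transcription, was lower than in Dorsal by -0.46 ± 0.13 in Cranial (0.0373) and by -0.58 ± 0.13 in Oral (0.0141), and Hnf4a was lower in Cranial than in Ventral by -0.66 ± 0.20 (0.0435). Of 6 listed COUP-TF cofactors, 4 were measured. Bcl11b, a zinc finger protein that binds COUP-TFs, was higher in EPF than in ENF by 2.54 ± 0.35 (0.0451), and lower in Oral than in Dorsal by -1.69 ± 0.31 (0.00447) and than in Ventral by -1.23 ± 0.31 (0.0237). Zfpm2, which binds Nr2f2 and GATA factors, was higher in Cranial than in Ventral by 1.70 ± 0.24 (0.00114) and than in Dorsal by 1.10 ± 0.24 (0.0114), and in Oral than in Ventral by 0.92 ± 0.24 (0.0285).

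Of 16 retinoic acid genes, 14 were measured. Rarg, a retinoic acid receptor, and Crabp2, which carries retinoic acid to the nucleus, were called higher in both head groups than in both trunk groups. Rarg averaged 10.32 in Oral and 9.94 in Cranial against 8.20 in Dorsal and 8.52 in Ventral, and Crabp2 8.83 and 7.82 against 5.58 and 5.43. Aldh1a2, which makes retinoic acid, was higher in Oral than in Cranial by 2.07 ± 0.27 (0.00266), than in Dorsal by 2.75 ± 0.27 (0.000105) and than in Ventral by 2.38 ± 0.27 (0.000273). Aldh1a3, another such enzyme, was lower in Cranial than in Ventral by -0.83 ± 0.21 (0.0193). The remaining 10 genes were called in no comparison.

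Hox genes, whose proteins partner with Meis and Pbx, were mostly lower in the head groups where they were called. Of 33 measured of 39 Hox genes, 13 were lower in Cranial than in Dorsal, 15 in Oral than in Dorsal, 16 in Oral than in Ventral and 15 in Cranial than in Ventral, while 2, 0, 0 and 3 were higher. Over all genes, in the same order, 7.45%, 6.3%, 4.31% and 6.2% were called lower and 11.2%, 10.5%, 10.3% and 11.7% higher. Hoxc8 averaged 3.52 in Oral, which is near background, and 4.57 in Cranial against 10.73 in Dorsal and 10.71 in Ventral. Not every Hox gene was low in Cranial. Hoxd8 averaged 9.19 in Cranial, 5.34 in Oral, 8.76 in Dorsal and 7.87 in Ventral, and Hoxd9 8.15, 5.88, 7.51 and 7.55. Between Oral and Cranial 6 were lower, led by Hoxd8 at -3.85 ± 0.35 (0.000205), and between Ventral and Dorsal 0 were called. EPF exceeded ENF in Hoxa9 by 1.97 ± 0.28 (0.046) and in Hoxc10 by 1.24 ± 0.16 (0.0324), the only 2 Hox calls there.

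**Figure D4:**
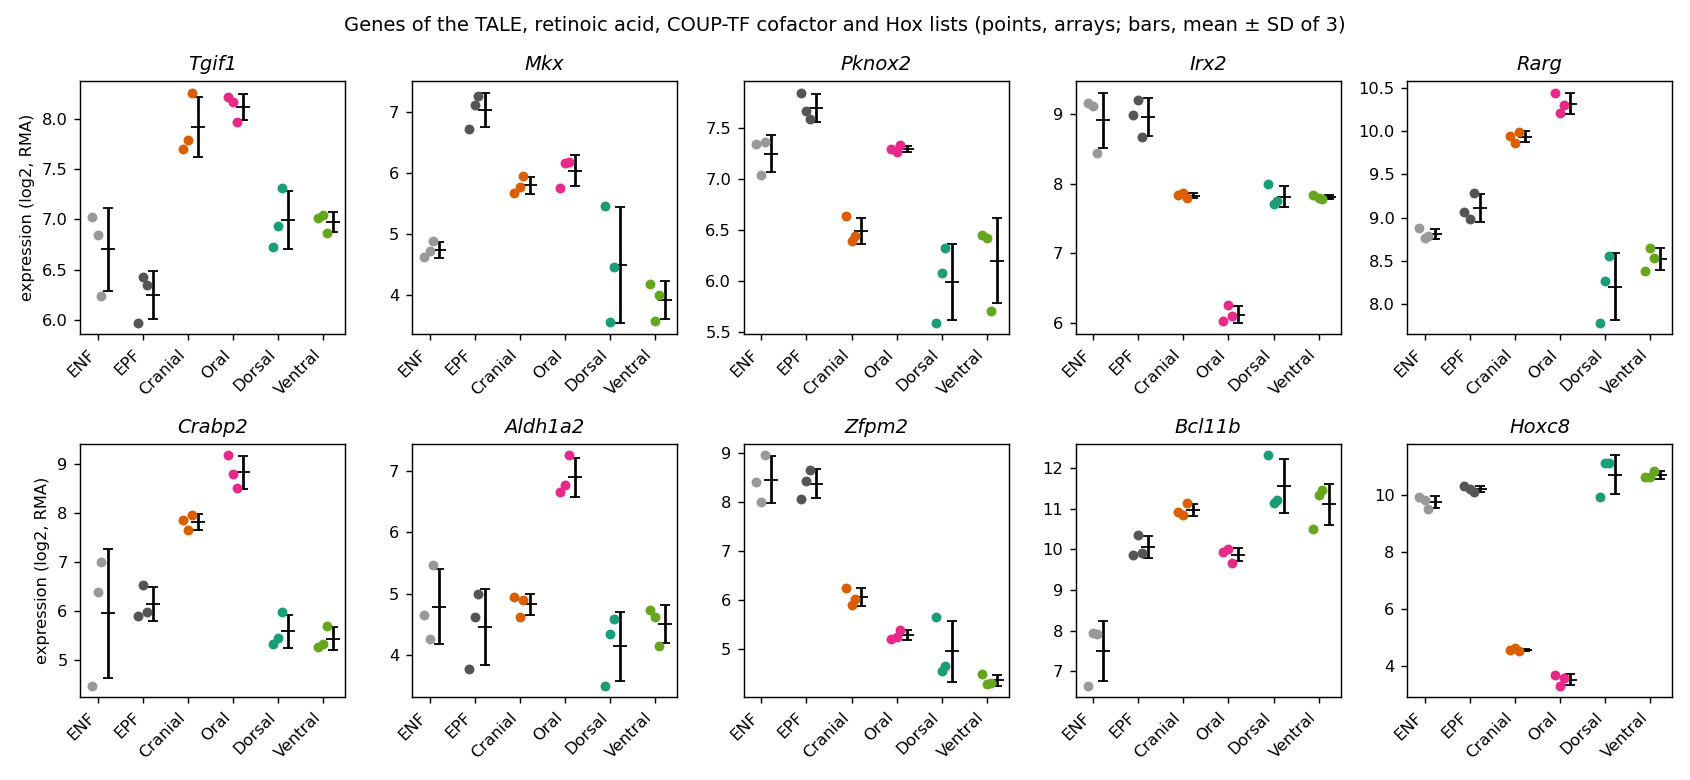
Expression (log2, RMA) of 10 genes from the TALE, retinoic acid, COUP-TF cofactor and Hox lists on each of the 18 arrays, each panel with its own axis. Points are arrays and bars are the mean ± SD of 3. Tgif1, Rarg and Crabp2 are higher in Cranial and Oral than in Dorsal and Ventral, Irx2 is lowest in Oral, and Hoxc8 is below 5 on every head array.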

How the data were processed

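The authors processed 18 Affymetrix arrays in R by RMA, quantile normalization included, per the series design text. They deposited a table of log2 values with a column for each array. The submitters' processing notes name RMA. Its version is not given in the sources used here, nor is the number of runs. Of 45101 probe sets, 64 were controls, 34945 carried 1 gene symbol in the platform annotation, 932 several and 9160 none. Of the single-symbol sets, 34741 matched RefSeq by Entrez identifier. The set with the highest mean over 18 arrays stood for each of 18193 genes, and no dim genes were removed.

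Groups and replicate numbers came from the sample titles. Differences were tested with limma 3.58.1 (lmFit and eBayes, R 4.3.3). The p-values were adjusted over all genes by the method of Benjamini and Hochberg, with a threshold of 0.05. EPF and ENF were fitted on 6 arrays and the 4 site groups on 12 arrays in 1 fit with a shared spread. The groups in that fit were not equally variable. The median SD per gene was 0.281 in Dorsal, 0.141 in Ventral, 0.134 in Oral and 0.104 in Cranial. Dorsal arrays thus enter the p-values of comparisons without Dorsal, and the less variable groups enter those with it. Fits on only the 6 arrays compared do not share spread with other groups. Other probe sets of the members were fitted over all 34945. The procedure was tested on simulated data. Tables and plots used Python 3.11.15, pandas 2.3.3, numpy 2.4.6 and matplotlib 3.10.9.

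Named were the 8 members, the 3 genes most like each member with a site span of at least 1 log2 (among genes with a mean at or above the median of all genes), and up to 2 called genes per direction, comparison and pathway list. The members and lists were chosen with earlier results of these data known. Promoter windows came from RefSeq, GRCm38.p6. No paired design was assumed. The alternatives were other sets of arrays in the fit, the replicate number as a block, array weights, a filter on dim genes, quantile normalization, centring, trended robust eBayes, the median of probe sets, and leaving out each array. With 3 arrays per group, their number limits the precision.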

Additional observations from a re-analysis of the deposited data

How the results depend on the processing

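Over the alternatives, 1021 member differences stayed on their side of the threshold, 71 lost a call, 30 gained one and 6 that involved a call reversed. Of the 1021, 995 kept their sign and 26 changed it, and those 26 were not called. The 6 came from the median of a gene's probe sets: Meis1 -0.52 and Pbx2 -0.05 (Cranial minus Dorsal), Nr2f6 0.01 (Oral minus Dorsal), and Nr2f6 0.08, Meis1 -0.57 and Pbx3 0.74 (Cranial minus Ventral). Of the comparisons on other single probe sets, 60 stayed on their side (44 with the same sign and 16, not called, with the other), 12 lost a call, 8 gained one and 18 reversed. In the order Cranial minus Dorsal, Oral minus Dorsal, Oral minus Ventral, Cranial minus Ventral, Nr2f6 1460648_at read 0.66, 0.87, 0.87 and 0.66. The other reversals were Meis1 1443260_at at -0.64 (Cranial minus Dorsal) and -0.57 (Cranial minus Ventral), Meis1 1459423_at at 0.03 (Oral minus Cranial), -0.39 and -0.46 (Cranial minus Dorsal and Ventral), Meis2 1417129_a_at at 0.88 and 0.70 (Oral minus Dorsal and Ventral), Nr2f2 1444229_at at -0.24 and 1431237_at at -0.01 (Oral minus Ventral), Pbx2 1418894_s_at at -0.16 and -0.01 (Cranial and Oral minus Dorsal) and 1449261_at at -0.15 and -0.08 (Cranial minus Dorsal and Ventral), and Pbx3 1421193_a_at at 1.53 (Cranial minus Ventral). The cause was not tested.

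The counts below follow the same order of comparisons. With only the 6 arrays compared, called genes were 1242, 1065, 4925 and 6684, with 1795 for Oral minus Cranial and 0 for Ventral minus Dorsal (533 at an unadjusted p under 0.05), and members called were 3 for Oral minus Cranial and 2 for Oral minus Dorsal. That fit ended the calls of Meis1, Meis3 and Nr2f6 (Oral minus Dorsal), Meis3 (Cranial minus Dorsal) and Pbx2 (both). With array weights, called genes were 10113, 8963, 7724 and 8854, with 1926 for Oral minus Cranial (3 members) and 952 for Ventral minus Dorsal (2 members, Nr2f1 and Nr2f6). With arrays centred on their median they were 6738, 5383, 4189 and 6224. For EPF minus ENF, all 18 arrays in 1 fit gave 460 called genes, the trended robust fit 88, and the fit without ENF 1 and EPF 2 gave 4. The median of probe sets gave 3072, 2842, 2413 and 2983 called genes, and 5, 5, 5 and 6 members. It gave 218 genes and 2 members for Oral minus Cranial, and 8 genes for Ventral minus Dorsal. The cause of these shifts was not tested.

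Leaving out 1 array at a time gave called genes of 1645 to 6148, 1770 to 5623, 1420 to 5085 and 1641 to 6128 in that order, with the highest count without Dorsal 1 each time. For Oral minus Cranial the range was 111 to 433, for Ventral minus Dorsal 2 to 161 and for EPF minus ENF 4 to 130. Members called ranged from 4 to 6, 4 to 6, 2 to 5 and 2 to 7, and from 1 to 2 for Oral minus Cranial, and were 0 in the other comparisons. Where 2 arrays of a group remained, the spread was shared over the groups.

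With the replicate block, called genes were 2931, 2760, 2355 and 2748, with 170 for Oral minus Cranial, 2 for Ventral minus Dorsal and 21 for EPF minus ENF, and members called were 6, 4, 4 and 4, with 1 for Oral minus Cranial. The block ended the calls of Meis1 and Meis3 (Oral minus Dorsal), Meis3 (Oral minus Ventral) and Nr2f6 (Cranial minus Ventral, adjusted p = 0.0519), and no other member call. Same-numbered arrays correlated in their deviations at -0.38 to 0.30, and in no comparison were all over 0.1. With so few pairs this cannot decide whether same-numbered arrays share an animal or a preparation, which the labels do not say.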
